A study of Danio rerio with 16 samples.

Results

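sox9b (ENSDARG00000043923) and sox9a (ENSDARG00000003293) are the zebrafish co-orthologues of the mammalian transcription factor gene SOX9. Both were chosen with earlier results of these data known and looked up by gene identifier. They are 2 of the 32266 genes in the count table. They were followed through RNA sequencing of 16 samples, each a pool of 20 whole embryos of the Tropical 5D line collected at 48 hours post fertilization (hpf). The 4 groups were slincR morphants exposed to TCDD, control morphants exposed to TCDD, slincR morphants exposed to DMSO and control morphants exposed to DMSO, with 4 biological replicates in each. All embryos carried a morpholino, a synthetic antisense oligomer, directed at slincR or used as a control. TCDD (2,3,7,8-tetrachlorodibenzo-p-dioxin) was given at 1 ng/mL and its vehicle DMSO at 0.1%, for 1 h from about 6 hpf. The labels also give a molar TCDD concentration that does not correspond to 1 ng/mL, and the mass concentration is used here. The comparisons ask how each paralog responded to TCDD and whether the slincR morpholino changed that response.

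Sox9 is a SoxE factor that binds DNA through an HMG box. In vertebrates it is required for cartilage formation and acts there with the SoxD factors Sox5 and Sox6, switching on collagen and other matrix genes. It is also used in neural crest, inner ear, glia, heart valves, pancreas and biliary ducts. The teleost genome duplication left zebrafish with sox9a and sox9b, which divide these sites between them, and both contribute to the pharyngeal skeleton. TCDD activates the aryl hydrocarbon receptor (AHR), a ligand-gated transcription factor, and jaw cartilage defects with reduced sox9b are known effects of TCDD in zebrafish. slincR is a long noncoding RNA gene that lies beside sox9b.

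The gene count per library ran from 14977267 to 23142081, and replicates of a group correlated at a Pearson's r of 0.97 to 0.99 across genes. The control morphant DMSO replicate 4 stood apart at −63.4 on the first principal component, where the other libraries lay between −17.7 and 19.4. The 4 replicates are labelled as biological, and the labels do not say whether they came from separate clutches, so the p-values measure the spread between these pools. cyp1a, the classical AHR target, was 154-fold higher with TCDD in control morphants and 166-fold higher in slincR morphants, with no overlap between TCDD and DMSO libraries. No identifier in the files is paired with slincR, and a morpholino need not lower the level of its target, so the morpholino labels are not checked here. Some markers of each of cartilage, muscle, neurons, lens, erythroid cells, liver, skin and heart were tested. The lowest tested marker had a mean of 1.30 CPM (counts scaled to library size). Only markers found by name and past the low-count filter count as tested, so a minimum level was set beforehand. These were 4 of 6 markers for cartilage, 2 of 4 each for muscle, neurons and erythroid cells, and 3 of 4 each for lens and heart. For liver and skin each, 4 of 4 were tested. In whole embryos, fewer cells of a type and less RNA per cell cannot be told apart.

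sox9b was lower with TCDD in every library of control morphants. It had 62.9, 78.8, 72.4 and 68.4 CPM in the 4 TCDD libraries, against 115, 89.0, 93.3 and 109 CPM in the 4 DMSO libraries. The highest TCDD library lay below the lowest DMSO library, so the groups did not overlap. The share of all genes whose ranges lie apart was not counted, here or for the other ranges compared. The means were 70.6 ± 6.70 CPM with TCDD and 102 ± 12.3 CPM with DMSO (SD, n = 4 each). The fall was −0.52 ± 0.09 on the log2 scale (standard error, 95% interval −0.72 to −0.33), a fold of 0.696, with an adjusted p of 0.00442 in edgeR's quasi-likelihood test. In that contrast 0.62% of the 20630 genes tested passed an adjusted p under 0.05 in either direction and 0.15% passed as lower, and sox9b ranked 51 by p. In the authors' deposited table for this comparison sox9b has a log2 fold change of −0.52 and an adjusted p of 0.00304.

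sox9a did not pass the test in the same libraries. It had 44.3, 40.8, 52.1 and 36.4 CPM with TCDD, against 34.8, 52.5, 43.8 and 27.7 CPM with DMSO in control morphants. The DMSO libraries spanned the whole range of the TCDD libraries. The means were 43.4 ± 6.62 CPM with TCDD and 39.7 ± 10.7 CPM with DMSO (SD, n = 4 each), a log2 fold change of 0.13 ± 0.16 with an adjusted p of 0.805 (edgeR). Its 95% interval of −0.19 to 0.45 does not overlap that of sox9b. Both intervals come from the same libraries, and their separation is not a test of a paralog difference. The count ratio described below compares the paralogs directly, with an exact permutation p of 0.114 in this contrast. The sox9a estimate was −0.01 without control morphant DMSO replicate 4, the lowest sox9a library of all 16. The authors' deposited tables of TCDD responses list sox9a for neither morphant.

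**Figure D1:**
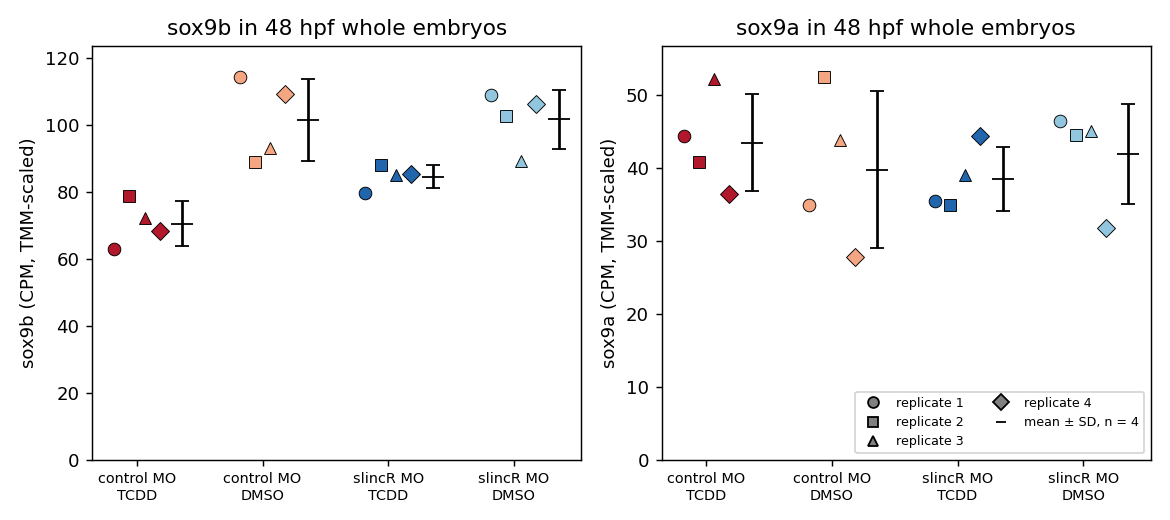
Level of sox9b (left) and sox9a (right) in each library, in CPM scaled by TMM, by group; markers stand for the 4 replicates and the bars for mean ± SD. The 4 TCDD libraries of sox9b lie between 62.9 and 78.8 CPM in control morphants and between 79.9 and 88.2 CPM in slincR morphants, below their DMSO libraries, while the sox9a groups overlap.

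In slincR morphants sox9b also had lower values with TCDD, but the difference did not pass the test. It had 79.9, 88.2, 85.1 and 85.5 CPM in the TCDD libraries, against 109, 103, 89.2 and 106 CPM in the DMSO libraries. The ranges did not overlap, a separation not counted over all genes. The highest TCDD value and the lowest DMSO value were 88.2 and 89.2 CPM. The means were 84.7 ± 3.49 CPM with TCDD and 102 ± 8.78 CPM with DMSO (SD, n = 4 each). The log2 fold change was −0.27 ± 0.09, with a 95% interval of −0.46 to −0.07, an unadjusted p of 0.00928 and an adjusted p of 0.404 (edgeR). Of all genes tested, 0.383% passed in this contrast in either direction, and 6.91% had an unadjusted p under 0.05.

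sox9a in slincR morphants had 35.4, 34.9, 39.0 and 44.4 CPM with TCDD, against 46.4, 44.4, 45.0 and 31.7 CPM with DMSO. The TCDD libraries lay within the range of the DMSO libraries, whose replicate 4 was the lowest of all 8. The log2 fold change was −0.12 ± 0.16, with a 95% interval of −0.44 to 0.20 and an adjusted p of 0.969 (edgeR).

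Between morphants sox9b passed the test neither under TCDD nor in DMSO. Its ranges lay apart under TCDD, a separation not counted over all genes, and overlapped in DMSO. In TCDD the 79.9 to 88.2 CPM of slincR morphants lay above the 62.9 to 78.8 CPM of control morphants with no overlap. The log2 difference was 0.26 ± 0.09 (95% interval 0.07 to 0.46), with an unadjusted p of 0.0107 and an adjusted p of 0.288 (edgeR). In this contrast 0.446% of genes passed, and 10.8% had an unadjusted p under 0.05. In DMSO sox9b averaged 102 ± 8.78 CPM in slincR morphants and 102 ± 12.3 CPM in control morphants (SD, n = 4 each). That log2 difference was 0.00 ± 0.09, with a 95% interval of −0.19 to 0.20 and an adjusted p of 0.996 (edgeR), where 0.15% of genes passed. For sox9a the log2 difference was −0.18 ± 0.16 in TCDD (adjusted p = 0.745) and 0.07 ± 0.16 in DMSO (adjusted p = 0.923, both edgeR), and the groups overlapped in both.

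The difference between the TCDD responses of slincR and control morphants was 0.26 ± 0.13 on the log2 scale for sox9b, with a 95% interval of −0.02 to 0.53. Its unadjusted p was 0.0639 and its adjusted p 1.00 (edgeR). For sox9a it was −0.25 ± 0.22, with a 95% interval of −0.71 to 0.20 and an adjusted p of 1.00 (edgeR). A smaller sox9b response in slincR morphants is thus not shown by the test of the difference. In edgeR, 0% of all genes passed this contrast, with 617 genes at an unadjusted p under 0.05, and DESeq2 and limma-voom also called 0. The contrasts share libraries, so they are not independent of each other.

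**Figure D2:**
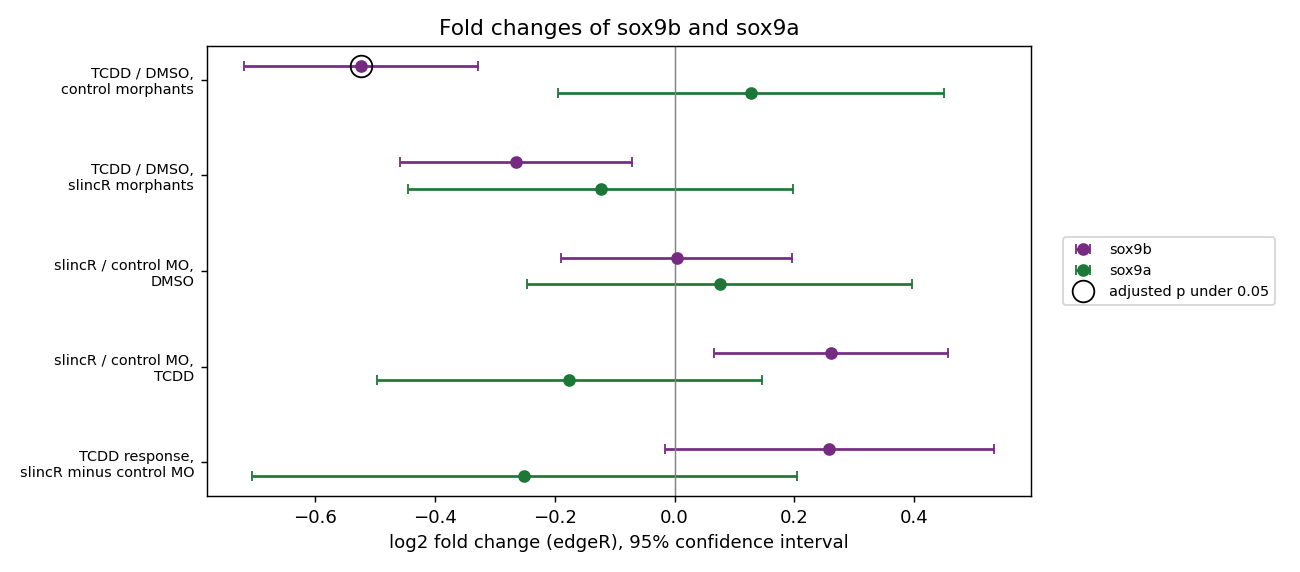
Log2 fold change of sox9b and sox9a in each contrast (horizontal axis) with its 95% confidence interval from the edgeR fit; the ring marks an adjusted p under 0.05. The ring surrounds the −0.52 of sox9b with TCDD in control morphants and no other estimate.

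The paralogs were next compared within each library as the ratio of their counts, which does not depend on library size. Transcript lengths were not used here, so the ratio of counts is not a ratio of transcript levels, and its change between groups is what can be read. More reads were counted for sox9b than for sox9a in each of the 16 libraries, by a ratio of 1.39 to 3.95. With TCDD the ratio was 1.42, 1.93, 1.39 and 1.88 in control morphants, against 3.29, 1.70, 2.13 and 3.95 with DMSO. DMSO replicate 2 lay inside the TCDD range, and the other DMSO libraries lay above it. The log2 difference, TCDD minus DMSO, was −0.68, with an exact two-sided permutation p of 0.114 and an adjusted p of 0.259 over 5 contrasts.

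In slincR morphants the ratio was 2.26, 2.53, 2.18 and 1.93 with TCDD, against 2.35, 2.31, 1.98 and 3.36 with DMSO. These groups overlapped, with DMSO replicate 4 above the others, and had a log2 difference of −0.15 (exact permutation p = 0.514, adjusted p = 0.643). Between slincR and control morphants the log2 ratio differed by 0.44 in TCDD (exact permutation p = 0.0571, adjusted p = 0.259) and by −0.10 in DMSO (exact permutation p = 0.8, adjusted p = 0.8). The TCDD responses of the log2 ratio differed by 0.53 between morphants, with an exact permutation p of 0.156 and an adjusted p of 0.259. That permutation exchanged the morpholino labels within each exposure. Its p therefore refers to no morpholino effect under either exposure, not to equal TCDD responses alone. No contrast of the ratio passed. The smallest p that 4 libraries against 4 allow is 0.0286, so such a contrast could not have passed the adjustment on its own, for the ratio or for the sum described next, and the outcome does not show that the paralogs respond alike.

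The sum of the paralogs did not pass after adjustment, although its ranges lay apart between exposures in both morphants. It was 114 ± 9.50 CPM with TCDD and 141 ± 5.80 CPM with DMSO in control morphants, and 123 ± 6.02 CPM with TCDD and 144 ± 9.53 CPM with DMSO in slincR morphants (SD, n = 4 each). TCDD and DMSO libraries did not overlap, at 105 to 124 CPM against 137 to 149 CPM in control morphants and 115 to 130 CPM against 134 to 155 CPM in slincR morphants. The log2 differences were −0.31 and −0.22, each at the smallest exact permutation p of 0.0286, and the adjusted p over 4 contrasts was 0.0571 for each. On average sox9b held 62.0% to 71.9% of the counts of both paralogs per group. The fall of the sum is therefore no result separate from that of sox9b. Between slincR and control morphants the sums overlapped, with log2 differences of 0.11 in TCDD (exact permutation p = 0.2) and 0.02 in DMSO (exact permutation p = 0.743).

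**Figure D3:**
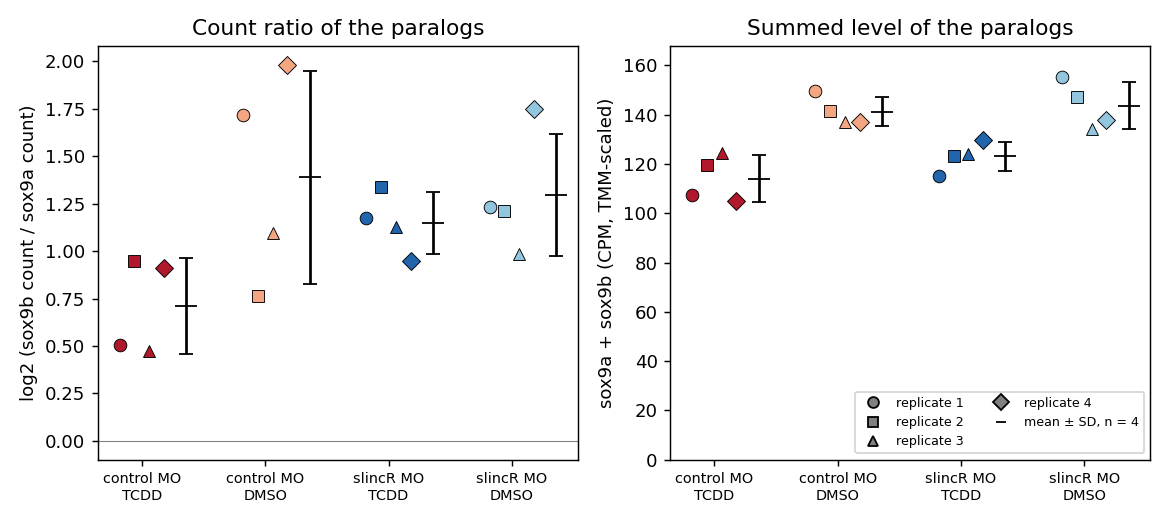
Log2 ratio of sox9b to sox9a counts (left) and summed level of both paralogs in CPM (right) in each library, by group, with mean ± SD over 4 replicates. The ratio spreads widely among control morphants in DMSO, at 0.76 to 1.98, while the sums of the TCDD libraries lie below those of the DMSO libraries in both morphants.

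The paralogs differed in how much they varied between replicates. The coefficient of variation of sox9a was 11.4% in slincR morphants with TCDD, 15.2% in control morphants with TCDD, 16.4% in slincR morphants with DMSO and 27.1% in control morphants with DMSO. For sox9b the same groups gave 4.12%, 9.48%, 8.63% and 12.2%, lower in each. Counting alone gives 3.52% to 3.80% for sox9a, with 458 to 1022 reads per library, and 2.24% to 2.82% for sox9b, with 968 to 2389 reads. For both paralogs the spread between pools exceeded the counting error in each group. The difference in spread between the paralogs was not tested. Across the 16 libraries log2 CPM of sox9a and sox9b had a Pearson's r of −0.34 (permutation p = 0.197, adjusted p = 0.263) and a Spearman's rho of −0.23 (permutation p = 0.382). As deviations from group means r was −0.48 (permutation p = 0.0634, adjusted p = 0.127) and rho −0.47 (permutation p = 0.0692). The permutation shuffled these deviations over all libraries, although they sum to 0 within each group, so its p-values can be too small. Without replicate 4 of slincR and of control morphants in DMSO, the libraries farthest from the sox9a median, the r values were −0.06 and −0.39, and the weak relation over all libraries rests on those libraries.

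The spread of sox9a moved with the share of reads that fell in no annotated gene. That share averaged 15.3 ± 1.26% with TCDD and 14.1 ± 0.95% with DMSO in control morphants, and 14.3 ± 1.02% with TCDD and 13.7 ± 1.01% with DMSO in slincR morphants (SD, n = 4 each). As deviations from group means, sox9a and the share had a Pearson's r of −0.79 (permutation p = 0.00028, adjusted p = 0.00112) and a Spearman's rho of −0.83 (permutation p = 0.00019) over 16 libraries. The r was −0.78 without the libraries farthest from the median share, replicate 4 of slincR morphants and replicate 3 of control morphants, both with TCDD. For sox9b r was 0.22 (permutation p = 0.405, adjusted p = 0.405) and rho 0.28 (permutation p = 0.3). These are 4 relations in all, the ones with the share chosen after the data had been seen. The permutation p-values for deviations from group means can be too small here as well. In slincR morphants with DMSO, replicate 4 had the highest share of its group, 15.2%, and the lowest sox9a, 31.7 CPM. In control morphants the library with the lowest share of its group had the highest sox9a, 52.1 CPM with TCDD and 52.5 CPM with DMSO. The same held in slincR morphants with TCDD, at 44.4 CPM, but not with DMSO. Outside slincR morphants with DMSO, the library with the highest share of its group was not the lowest in sox9a. In control morphants with DMSO, replicate 4 had 27.7 CPM at a share of 14.4%, and replicate 1 had 34.8 CPM at 15.0%. Many genes followed the share: of 18694 genes with a mean of at least 1 CPM, 398 had an r at or below that of sox9a, and 5.80% had one at least as strong in either sign.

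With this share as a covariate in the edgeR fit, sox9a had a TCDD log2 fold change of 0.37 ± 0.12 in control morphants, with an unadjusted p of 0.00426 and an adjusted p of 0.113. In slincR morphants it was 0.00, so the negative estimate above does not hold its sign there. sox9b stayed at −0.55 in control morphants with an adjusted p of 0.00182. Removing the slope on the share from the log2 count ratio, an alternative added after the data had been seen, gave a TCDD difference of −0.94 in control morphants. Its exact permutation p, with the slope estimated from the same libraries, was the smallest possible, 0.0286, with an adjusted p of 0.0714, against 0.114 and 0.259 without the adjustment. In slincR morphants the adjusted TCDD difference was −0.29 (exact permutation p = 0.0857, adjusted p = 0.107), against −0.15 unadjusted. Between slincR and control morphants in TCDD it was 0.66 (exact permutation p = 0.0286, adjusted p = 0.0714), against 0.44 unadjusted. The mean share was itself higher with TCDD, 15.3% against 14.1% with DMSO in control morphants, and sox9a followed it in these same libraries. The adjustment thus cannot separate the share from the exposure, and a rise of sox9a with TCDD is not shown. What the share stands for was not tested.

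**Figure D4:**
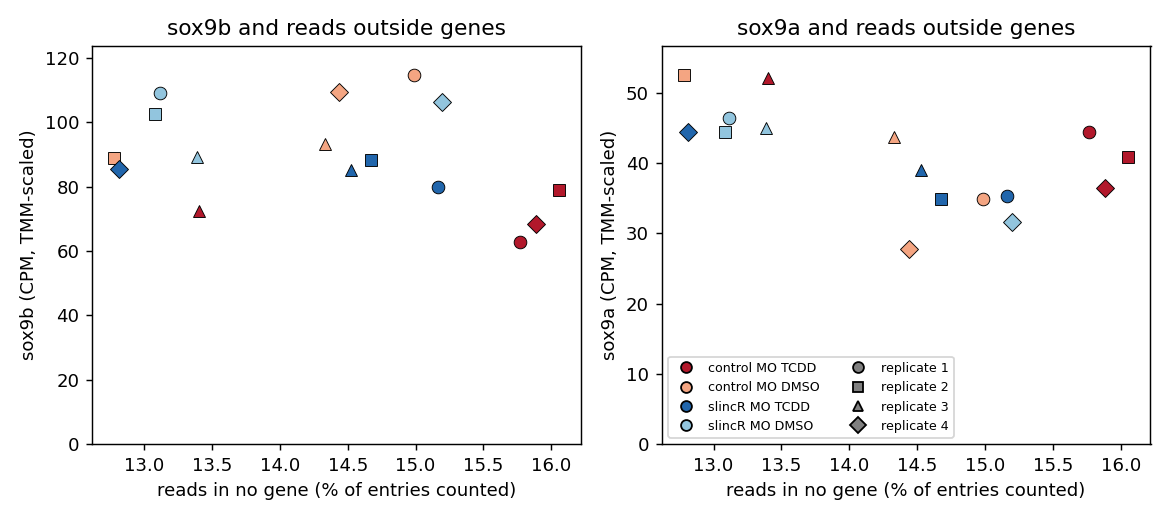
Level of sox9b (left) and sox9a (right) in CPM against the percentage of reads that fell in no gene, with 1 point per library, coloured by group and shaped by replicate. sox9a is lower in libraries with a higher share, with an r of −0.79 within groups, and for sox9b the r is 0.22.

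The genes whose profile over the 16 libraries was most like each paralog differed. By Pearson's r of log2(CPM + 0.5) among 17732 named genes, sox9b was most like lgals3bp.1 (r = 0.88), which encodes a galectin-binding protein, foxd2 (0.87), a forkhead transcription factor, ugt5g1 (0.86), a glucuronosyltransferase, cyp21a2 (0.85), the steroid 21-hydroxylase, and emid1 (0.83), an EMI-domain protein. sox9a stood at rank 14769 in that order. Within groups these r values were 0.16 to 0.58, lower than over all libraries. These genes were picked on the same libraries, so a shared TCDD direction is no separate result. With TCDD in control morphants ugt5g1 had a log2 fold change of −0.56 ± 0.13 (adjusted p = 0.0396) and emid1 by −0.36 ± 0.08 (adjusted p = 0.0321, both edgeR). Without control morphant DMSO replicate 4 the adjusted p was 0.132 for ugt5g1 and 0.0757 for emid1. foxd2, lgals3bp.1 and cyp21a2 did not pass, with log2 fold changes of −0.29, −0.91 and −1.13.

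sox9a was most like VIT (r = 0.97), which encodes the matrix protein vitrin, RARG (ENSDARG00000034117, 0.92), a retinoic acid receptor, AGO4 (0.91), an Argonaute protein, pcdh2ac (0.90), a protocadherin, and ABHD17A (ENSDARG00000043084, 0.90), a depalmitoylase. sox9b stood at rank 13803. Here the r within groups was as high, 0.90 to 0.98. These genes too were picked on the same libraries, where the sox9a groups overlapped. A shared replicate spread, or a shared relation with the no-gene share, is therefore no separate result. None of them passed an adjusted p under 0.05 in any contrast, and their TCDD log2 fold changes in control morphants were 0.09 to 0.33. VIT had an r of −0.87 and RARG one of −0.79 with the no-gene share. For AGO4, pcdh2ac and ABHD17A it was −0.59 to −0.57.

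The other SoxE and SoxD genes looked up were SOX5, SOX6, SOX8 and SOX10, and no further family member was searched for. Of the 5 identifiers tested, 0 passed in any contrast in edgeR, DESeq2 or limma-voom, beside 0% to 0.62% of all genes in edgeR. SOX10 between morphants in TCDD was the only one at an unadjusted p under 0.05 in edgeR. SOX10, the SoxE factor of neural crest and glia, averaged 35.4 ± 2.68 CPM with TCDD and 39.3 ± 4.51 CPM with DMSO in control morphants, and 43.3 ± 1.92 CPM with TCDD and 43.9 ± 4.21 CPM with DMSO in slincR morphants (SD, n = 4 each). In TCDD the 42.1 to 46.2 CPM of slincR morphants lay above the 31.7 to 37.6 CPM of control morphants. How many of all genes lie apart in this way was not counted. The log2 difference of SOX10 between morphants in TCDD was 0.29 ± 0.10, with an unadjusted p of 0.00666 and an adjusted p of 0.245 (edgeR). When the fit took the no-gene share as a covariate, the difference was 0.38 ± 0.09 and passed, at an adjusted p of 0.0275 (edgeR). With that covariate 286 of all genes passed in this contrast, against 92 without it. The share averaged 14.3% in slincR morphants and 15.3% in control morphants with TCDD. SOX5 and SOX6, the SoxD partners of Sox9 in cartilage, had TCDD log2 fold changes of 0.02 each in control morphants and 0.10 and 0.09 in slincR morphants. Within groups SOX5, SOX6 and SOX10 had an r of 0.83, 0.84 and 0.71 with the no-gene share, of the opposite sign to sox9a. The name SOX8 is given to ENSDARG00000037782 and ENSDARG00000105301, which were near the detection limit at a mean of 0.68 to 1.17 CPM in every group, and neither passed.

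The reference gene table of assembly GRCz12tu, used for gene order only, places slincR next to sox9b, followed on the same side by sstr2b, sox8b and proza. sox9a lies between slc39a11, sstr2a and tnfrsf13b on the lower side and gb:bf158330, vstm4b and lrrc18b on the higher side. Of the neighbours tested, none passed in any contrast in edgeR, where 0% to 0.62% of all genes passed. proza, a vitamin K-dependent protein gene, had TCDD log2 fold changes of −0.03 ± 0.10 in control morphants and 0.17 ± 0.10 in slincR morphants (adjusted p of 0.937 and 0.84, edgeR). SLC39A11, a zinc transporter, had 0.36 ± 0.23 and 0.40 ± 0.23 (adjusted p of 0.586 and 0.799, edgeR). The name SSTR2 is shared by 2 identifiers that cannot be assigned to sstr2a or sstr2b, and the tested one, ENSDARG00000059090, had 0.56 ± 0.21 in control morphants (adjusted p = 0.302, edgeR) and 0.11 ± 0.21 in slincR morphants (adjusted p = 0.988, edgeR). VSTM4 is also a name shared by 2 identifiers, which cannot be assigned to vstm4b, and both were tested. ENSDARG00000053186 had 0.60 ± 0.23 in control morphants (adjusted p = 0.312, edgeR) and 0.26 ± 0.23 in slincR morphants (adjusted p = 0.93, edgeR). ENSDARG00000010154 had 0.05 ± 0.21 in control morphants (adjusted p = 0.958, edgeR) and −0.06 ± 0.21 in slincR morphants (adjusted p = 0.995, edgeR). LRRC18 is shared by 2 identifiers too, of which ENSDARG00000076236 was tested, at a mean of 0.35 to 0.45 CPM per group. It had 0.10 ± 0.65 in control morphants (adjusted p = 0.97, edgeR) and 0.39 ± 0.62 in slincR morphants (adjusted p = 0.983, edgeR).

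The targets and partners of Sox9 were described from lists written for this purpose, with earlier results of these data known. Of 25 cartilage genes tested, 1 passed with TCDD in control morphants and 1 in slincR morphants in edgeR, both times ctgfa, a matricellular growth factor also expressed outside cartilage. DESeq2 called ctgfa in both and col27a1b, a fibrillar collagen gene, in control morphants. At an unadjusted p under 0.05 there were 7 and 5 of these genes, beside 11.2% of all genes tested in control morphants and 6.91% in slincR morphants, the background for such counts in the lists that follow. Over all genes tested, 0.47% passed as higher in control morphants and 0.31% in slincR morphants. ctgfa had 131 ± 4.61 CPM with TCDD and 103 ± 5.47 CPM with DMSO in control morphants, and 145 ± 6.45 CPM with TCDD and 103 ± 5.00 CPM with DMSO in slincR morphants (SD, n = 4 each). The log2 fold changes were 0.34 ± 0.07 (adjusted p = 0.0273) and 0.49 ± 0.07 (adjusted p = 0.000428, edgeR). Other list members went the other way from ctgfa. With TCDD 14 estimates were negative and 11 positive in control morphants, and 18 and 7 in slincR morphants. The median over the list was −0.01 in control morphants and −0.05 in slincR morphants, beside 0.00 over all genes in each. The cartilage genes with the smallest p between slincR and control morphants did not pass either. They were UCMA, a cartilage matrix protein, at −0.26 in DMSO and −0.30 in TCDD, XYLT1, which starts proteoglycan chains, at 0.52 in DMSO, and MATN4, a matrilin, at 0.22 in TCDD.

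Summed chondrocyte markers ran from 85.3 to 127 CPM with TCDD and 107 to 126 CPM with DMSO in control morphants, which overlap. In slincR morphants they ran from 89.3 to 95.8 CPM with TCDD and 98.4 to 117 CPM with DMSO, which do not overlap. The lowest mean among the 4 tested chondrocyte markers was 5.61 CPM. In control morphants summed erythroid markers were lower with TCDD, at 1149 to 1506 CPM against 1561 to 1951 CPM with DMSO. In slincR morphants the erythroid sums overlapped, at 919 to 1456 CPM with TCDD and 1407 to 1646 CPM with DMSO. Summed lens markers in control morphants were 214 to 232 CPM with TCDD and 241 to 270 CPM with DMSO. In slincR morphants they were 178 to 213 CPM with TCDD and 214 to 263 CPM with DMSO. Summed neuron markers were 882 to 917 CPM with TCDD and 694 to 873 CPM with DMSO in control morphants. The 694 CPM was that of DMSO replicate 4, the library apart on the first principal component. The highest DMSO sum lay close to the lowest TCDD sum. In slincR morphants the neuron sums overlapped, at 835 to 952 CPM with TCDD and 872 to 881 CPM with DMSO. The erythroid and neuron sums rest on 2 markers each. Summed muscle, liver, skin and heart markers overlapped between TCDD and DMSO in both morphants. How many of all genes have ranges apart like some of these sums was not counted. The part of these marker levels in the sox9b difference was not tested.

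Of 24 genes of the signals known to act upstream of sox9, 1 passed with TCDD in control morphants and 0 in slincR morphants in edgeR, where 1 gene had an unadjusted p under 0.05. In both cases this was bmp4, a bone morphogenetic protein. It stood at 57.2 ± 0.95 CPM with TCDD and 44.5 ± 1.88 CPM with DMSO in control morphants (SD, n = 4 each), a log2 fold change of 0.36 ± 0.08 (adjusted p = 0.0275, edgeR). In slincR morphants it was 0.33 ± 0.08 (adjusted p = 0.0672, edgeR), and DESeq2 called it there. Without control morphant DMSO replicate 4 these adjusted p-values were 0.072 and 0.0454, and with the no-gene share as a covariate 0.0197 and 0.0331. More of all genes passed with that covariate than without it in both morphants. The list's median was 0.11 in control morphants and 0.07 in slincR morphants.

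Of 17 neural crest genes, 0 passed with TCDD in control morphants in edgeR and DESeq2, with 5 at an unadjusted p under 0.05. In slincR morphants 1 passed in edgeR and 2 in DESeq2. The gene called by both was twist3, a basic helix-loop-helix factor, at 11.5 ± 1.56 CPM with TCDD and 7.15 ± 0.78 CPM with DMSO in slincR morphants (SD, n = 4 each), a log2 fold change of 0.69 ± 0.14 (adjusted p = 0.0136, edgeR). In control morphants it was 0.46 ± 0.14 and did not pass (adjusted p = 0.152, edgeR). The list's median log2 fold change was −0.01 in control morphants and −0.06 in slincR morphants. PRRX1 (ENSDARG00000033971), a mesenchymal homeobox factor, was at 0.30 ± 0.09 in control morphants. An identifier named PRRX1, a name that 2 list members share, passed in edgeR in both morphants when control morphant DMSO replicate 4 was left out, and was the other DESeq2 call in slincR morphants.

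Of 14 heart valve and epicardium genes, 1 passed with TCDD in control morphants and 0 in slincR morphants in edgeR and DESeq2, where 5 had an unadjusted p under 0.05. The passing gene was vcanb, a versican of the cardiac jelly and other matrices. Its log2 fold change was 0.37 ± 0.09 (adjusted p = 0.0405, edgeR), and its adjusted p was 0.118 without control morphant DMSO replicate 4. In slincR morphants it was 0.30 ± 0.09 (adjusted p = 0.187, edgeR), and with the no-gene share as a covariate it passed there at 0.34 (adjusted p = 0.0186, edgeR). More of all genes passed there with that covariate than without it. Of 9 radial and Müller glia genes, 0 passed in either morphant in edgeR, with 4 at an unadjusted p under 0.05 in control morphants and 1 in slincR morphants. GLUL (ENSDARG00000099776), the glial glutamine synthetase, had −0.36 ± 0.09 in control morphants (adjusted p = 0.0764, edgeR). DESeq2 called GLUL, and with the no-gene share as a covariate edgeR called it and S100B, a glial calcium-binding protein, as lower. With that covariate 283 of all genes passed in control morphants, against 128 without it. Of 5 pancreas and biliary duct genes, 0 passed in edgeR and DESeq2, with 1 at an unadjusted p under 0.05 in each morphant. PTF1A, a pancreatic transcription factor, had −0.49 ± 0.15 in control morphants (adjusted p = 0.173, edgeR). The median log2 fold changes of the heart, glia and pancreas lists in control morphants were 0.03, −0.01 and −0.11, and in slincR morphants 0.05, −0.02 and −0.09. Between slincR and control morphants 0 of the 94 genes tested of the cartilage, signal, neural crest, heart, glia and pancreas lists passed in edgeR under TCDD or DMSO. Under TCDD 12 and under DMSO 9 of them had an unadjusted p under 0.05, beside 10.8% and 9.11% of all genes tested. DESeq2, which called more of all genes than edgeR in both contrasts, called bmp4 under TCDD and NOTCH3, a Notch receptor, under DMSO. Their edgeR log2 differences were −0.26 ± 0.08 (adjusted p = 0.178) and 0.53 ± 0.13 (adjusted p = 0.151). NOTCH3 spread widely in control morphants with DMSO, from 135 to 275 CPM, against 313 to 343 CPM in slincR morphants.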

How the data were processed

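Per the labels' protocols, poly-A RNA of whole embryos was sequenced with paired-end reads. The authors deposited raw counts per Ensembl gene and library. Per the submitters' processing notes the tools were TopHat, HTSeq, SAMtools, FastQC and edgeR and the build was GRCz10. Not given in the sources used here were the tool versions, the annotation release and any strand setting. Reads aligned to more than 1 place (24.4% to 29.4% of the entries counted), ambiguous reads (0.274% to 0.332%) and reads in no gene (12.8% to 16.1%) stayed out of library sizes and tests. Sequence shared by the paralogs would lose reads this way, and overlapping or antisense genes cannot be told apart. Tables of called genes were deposited by the authors as well. Per the file headers these give each gene's log2 fold change and mean log2 CPM, an F score, its p-value raw and adjusted, and −log10 of the adjusted one. The gene table calls both identifiers SOX9. The authors' deposited table names ENSDARG00000043923 sox9b, and ENSDARG00000003293 was taken as sox9a by its identifier. Symbols were found for 26437 of 32266 identifiers, and those in capitals keep the table's spelling.

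Counts were normalised by TMM and filtered by filterByExpr (minimum count 10), which left 20630 genes. Group means were estimated over the 16 samples together in a quasi-likelihood model of edgeR 4.0.16 (limma 3.58.1, R 4.3.3, 12 residual degrees of freedom), and p-values were adjusted by Benjamini-Hochberg over all genes within a contrast, with a threshold of 0.05. CPM are counts scaled by TMM library size. The log2 ratio of counts and the log2 summed CPM were tested by two-sided exact permutation over samples (SciPy 1.17.1), adjusted over 5 and 4 contrasts. For the difference between the TCDD responses of the ratio, morpholino labels were permuted within each exposure. Correlations used 100000 permutations over all libraries, also for deviations from group means. The fitting script was checked on simulated counts. Alternatives were other size factors, no filter, DESeq2 1.42.0, limma-voom, only the samples compared, a replicate block, the no-gene share as a covariate, a prior count of 10 in the ratio, and leaving out each library. Adjusting the ratio and sum for the no-gene share, and the list counts without control morphant DMSO replicate 4 or with that covariate, were added after the data had been seen.

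Replicate numbers were not used to pair the samples in the main fit. Same-numbered libraries had correlations of −0.18 to 0.13 in their deviations from group means. Such low values do not settle whether same-numbered pools share a clutch or batch. Genes named were both paralogs, the SoxE and SoxD genes looked up, the nearest named neighbours of each paralog, the 5 genes most like each, and cyp1a. Per list and contrast up to 4 members past the threshold were picked, or where none passed up to 2 with the smallest p. Of these list members the text gives those it describes. The members and lists were chosen with earlier results of these data known. Promoter and protein sequences were not used here.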

Additional observations from a re-analysis of the deposited data

Results flagged for a closer look

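In 36 groups of 4 libraries of the Sox genes and the paralog measures, 2 held a library far from the other 3 by Dixon's criterion, and chance alone marks about 1 in 20. sox9a in slincR morphants with DMSO was lowest in replicate 4, at 31.7 CPM, where the other libraries had 44.4 to 46.4 CPM. That library also had the highest share of reads in no gene of its group, 15.2%, and the part of this share in the low value was not tested. SOX10 in slincR morphants with TCDD was highest in replicate 2, at 46.2 CPM, where the other libraries had 42.1 to 42.7 CPM.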

How the results depend on the processing

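The TCDD call of sox9b in control morphants was kept under 8 alternatives (log2 fold change −0.55 to −0.50, adjusted p 5.70e-05 to 0.0463) and without each of the 16 libraries (−0.58 to −0.46, adjusted p 0.00213 to 0.0404). With the replicate block it was −0.52, with an adjusted p of 0.0116, and the block changed no call of either paralog. For their ratio and sum, exchanging labels only within replicate numbers leaves too few arrangements for any contrast to pass. None had passed without the block either, so their unchanged outcome cannot show whether pairing matters. Some differences far from the threshold turned sign. With the no-gene share as a covariate, sox9a had a log2 fold change of 0.0047 with TCDD in slincR morphants and −0.0077 between morphants in DMSO, and the log2 ratio between morphants in DMSO was 0.0063; the cause was not tested. Leaving out libraries gave −0.0555 to 0.0645 for sox9b and −0.0618 to 0.24 for sox9a between morphants in DMSO, −0.00999 to 0.29 for sox9a with TCDD in control morphants, −0.30 to 0.10 for the log2 ratio between morphants in DMSO, −0.25 to 0.0043 for the log2 ratio with TCDD in slincR morphants, and −0.0156 to 0.0549 for the log2 sum between morphants in DMSO. Genes called with TCDD in control morphants numbered 128, against 279 in DESeq2, 283 with the covariate and 69 with only the 8 samples compared, and in slincR morphants 79, against 165, 130 and 125. Between morphants they numbered 31 in DMSO, against 95, 99 and 17, and 54 with no filter, and 92 in TCDD, against 247, 286 and 180. Without single libraries they ranged over 70 to 155, 61 to 114, 17 to 52 and 22 to 115 in these contrasts.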
